A study of Mus musculus with 4 samples.

Results

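Classical monocytes of the liver were selected on measured values, by a gate on raw unique molecular identifier (UMI) counts in single-cell RNA sequencing of sorted hepatic immune cells. A cell entered the gate with at least 1 UMI of Ccr2, at least 3 UMIs of Lyz2, at least 1 UMI of Ly6c2, Chil3 or F13a1, and fewer than 5 UMIs of C1qa, C1qb and C1qc together per 1000 UMIs. It also had 0 UMIs of each of 6 genes of other lineages, namely Siglech, Cd209a, Xcr1, Cd3e, Cd79a and Ncr1. The gate took 234 of the 6237 cell barcodes that passed the quality filter, and 221 of the 234 came from mice with steatohepatitis.

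Classical monocytes leave the bone marrow with the help of Ccr2, the receptor for the chemokine Ccl2, circulate with high Ly6C on their surface, and enter injured tissue. In the injured liver they can become macrophages, and on that path they are known to lose blood monocyte genes and to gain macrophage genes such as the C1q complement genes. Major histocompatibility complex (MHC) class II molecules present peptides to CD4+ T cells; their α and β chains assemble with the invariant chain Cd74 and are loaded with peptide by H2-DM. Their genes share an upstream promoter block that includes a Y box, and in mature myeloid cells they are switched on through the coactivator Ciita.

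All libraries came from C57BL/6J mouse liver, from cells sorted as CD45+ CD146-, that is leukocytes without endothelial cells, after a digestion with the transcription inhibitor flavopiridol present. Mice had either a control diet or the diet labelled nash-amln, a diet that induces nonalcoholic steatohepatitis (NASH). Each diet had 2 libraries of the 10x Genomics platform, called control 1 and 2 and NASH 1 and 2 after the labels' replicate numbers. The labels used here name neither sex, age nor time on the diet, and they do not say that the 2 libraries of a diet came from separate mice. In the diet contrast, p-values measure the spread between the libraries of a diet. In contrasts with the library as a block, they measure how far differences between groups of cells varied between NASH 1 and NASH 2. Either spread may be technical.

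Monocytes made up 7.73% of kept barcodes in NASH 1 (123 of 1592, exact 95% Clopper-Pearson interval 6.46 to 9.15) and 5.19% in NASH 2 (98 of 1887, 4.24 to 6.29). They made up 0.151% in control 1 (2 of 1321, 0.0183 to 0.546) and 0.765% in control 2 (11 of 1437, 0.383 to 1.37). Both NASH libraries lay above both control libraries. Since the gate was chosen with this difference known, no test was made, and the intervals cover counting error only. Depth moved with diet: the median kept barcode held 7633 and 7469 UMIs in the NASH libraries and 3395 and 3053 in the controls. With every barcode thinned to 1000 UMIs before the gate was applied, the shares were 4.15%, 2.70%, 0.230% and 0.422% in the same order. A stricter filter of at least 500 genes and at most 5% mitochondrial UMIs gave 9.15%, 5.80%, 0.526% and 2.02%. These are shares of a sort, not numbers of cells per liver.

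Within the gate the 3 alternative markers were carried unevenly. Ly6c2, a Ly6C surface protein gene, had a UMI in 102 of 123 monocytes of NASH 1 and 85 of 98 of NASH 2. Chil3, which encodes the secreted chitinase-like protein Ym1, had one in 78 and 51. F13a1, the coagulation factor XIII A chain, had one in 83 and 77. All 3 were present in 45 and 42 cells of NASH 1 and NASH 2. In the controls they were present in both cells of control 1 and in 9 of 11 of control 2. Exactly 1 of the 3 was present in 28 and 25 cells of NASH 1 and NASH 2 and in no control cell. As a reference chosen after seeing the data, T and NK cells were taken as cells with a UMI of Cd3e or Ncr1, C1q under the same limit and fewer than 3 UMIs of Lyz2. In those of NASH 1 and NASH 2 (median depth 3419.5 and 3364.5 UMIs against 6961 and 6104 in the monocytes), F13a1 had 0 UMIs and Chil3 lay at 5.17 and 0 counts per 1000000 UMIs (CPM). Ly6c2 was not absent from the T and NK cells. It was under 1 per 1000 UMIs in 41 of 50 of them in NASH 1 and 56 of 64 in NASH 2, and the highest cells held 7.47 and 4.14 per 1000. Transcripts of Ly6c2 and its neighbour Ly6c1 are 97.57% identical, and those of Chil3 and Chil4 94.23%. Reads that match both copies may have been lost or given to the other copy by the authors' counting.

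The limits of the gate cut through continuous values. With Ccr2 at 1 UMI there were 23 members, and 50 cells met every other condition with Ccr2 at 0. No member had exactly 3 UMIs of Lyz2, and 3 otherwise qualifying cells had 2. C1q sums of 4 to 5 per 1000 were found in 4 members and sums of 5 to 6 in 8 cells outside, while 186 members had under 1 per 1000. Only 1 UMI of the 3 markers together was present in 17 members, and 53 otherwise qualifying cells had none. Genes of another lineage kept out 140 cells.

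Lymphocyte markers were low in the monocyte sums, and other markers were uneven between libraries. The gate kept Cd3e, Cd79a and Ncr1 at 0 UMIs, which tilted the lymphocyte sums towards 0, so they are no separate check of the gate. T cell markers (9 genes) summed to 13.2 and 23.2 CPM in NASH 1 and NASH 2 and to 0 in both controls, and B cell markers (9 genes) to between 0 and 39.9 CPM over the 4 libraries. NK cell and ILC1 markers (10 genes) summed to 34.2 and 15.5 CPM in NASH 1 and NASH 2 and to 0 and 79.8 CPM in control 1 and control 2. Neutrophil markers (16 genes) summed to 1340 CPM in NASH 1 and 169 in NASH 2, against 548 and 851 in control 1 and control 2. In NASH 1, 66.0% of the 702 UMIs of the granule genes Mpo, Elane, Prtn3 and Ctsg came from 1 barcode, as did 84.7% of 118 UMIs in control 2. Stellate cell and fibroblast markers (8 genes) summed to 394 CPM in NASH 1, 12.4 in NASH 2 and 0 in the controls, with 2 barcodes holding 214 and 212 of the 444 UMIs of Dcn, Lum and Mgp. Endothelial markers (13 genes) summed to 1728 CPM in control 2 against 274 in control 1 and 333 in NASH 1. The part of these cells in the results was not tested beyond leaving out each gene's highest barcode. No monocyte was called a doublet, and library pairs shared 2 to 8 barcode sequences, of which 1 pair between the NASH libraries and 1 between the controls included a monocyte.

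The diets were compared on summed monocyte UMIs, 906483 and 645348 in NASH 1 and NASH 2 but only 10950 and 75229 in control 1 and control 2. Levels are CPM of a library's monocyte sum, and genes were called at an adjusted p under 0.05. With Benjamini-Hochberg adjustment over 3741 genes, edgeR's quasi-likelihood test called 97 genes: 44 genes (1.18% of those tested) higher in NASH monocytes and 53 (1.42%) lower. With 2 and 11 control cells this count was fragile: it was 12 without NASH 1, 10 without NASH 2, 283 without control 1 and 73 without control 2, and 7 with DESeq2. The MHC class II genes H2-Aa, H2-Ab1 and H2-Eb1 were called in all 14 alternatives that gave a value.

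H2-Aa, the class II α chain of the I-A molecule (chromosome 17, 34282744 to 34287823, minus strand, mm10), had 2863 and 2021 UMIs in NASH 1 and NASH 2 monocytes and 2 and 9 in control 1 and control 2. These were 3158 and 3132 CPM against 183 and 120 CPM. The groups did not overlap, and the log2 fold change was 4.69 (SE 0.537, edgeR adjusted p = 4.04e-15). H2-Ab1, the matching β chain gene (34257689 to 34269419, plus strand, same chromosome), stood at 2964 and 3201 CPM against 0 and 120 CPM. Its 9 control UMIs all came from control 2, and its log2 fold change was 5.00 (SE 0.554, edgeR adjusted p = 8.51e-16). H2-Eb1, the β chain of I-E (34305867 to 34316674, plus strand), stood at 2047 and 2061 CPM against 0 and 53.2 CPM, a log2 fold change of 5.55 (SE 0.626, edgeR adjusted p = 1.89e-15). C57BL/6 mice are known to lack a functional I-E α chain, so H2-Eb1 message is not known to give surface I-E in this strain.

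Cd74, the invariant chain, lay at 8397 and 9056 CPM in NASH 1 and NASH 2 and at 1918 and 226 CPM in control 1 and control 2. Both NASH libraries were higher, with a log2 fold change of 4.03 (SE 0.481, edgeR adjusted p = 6.65e-14), called in 13 of 14 alternatives. The controls differed among themselves because almost all Cd74 UMIs of control 1 came from 1 of its 2 cells. H2-DMb1, a chain of the peptide-loading H2-DM, rose less, from 183 and 66.5 CPM to 351 and 381 CPM (log2 fold change 2.22, SE 0.568, edgeR adjusted p = 0.00821). Ctss, the protease that trims the invariant chain, rose from 2009 and 1250 CPM to 2784 and 3400 CPM (1.27, edgeR adjusted p = 0.0426), and Lgmn, another endosomal protease, from 183 and 173 CPM to 509 and 576 CPM (1.72, edgeR adjusted p = 0.0132). Lgmn was called in 7 of 14 alternatives. H2-DMa did not pass the test at 498 and 696 CPM against 731 and 173 CPM. Of the 14 genes of the MHC class II list, 11 were tested, 7 were higher and none lower. Their median log2 fold change was 2.08 against 0.13 over all 3741 genes, of which 1.18% were higher and 1.42% lower.

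The class II genes carry a common promoter element, and 3 of the promoters with a reference entry are shown because their genes rose together. Each sequence is the 150 bases before the annotated start of the gene (RefSeq, GRCm38.p6), printed 5′ to 3′ on the gene's strand, with the Y box core TGATTGG in capitals.
H2-Aa, chr17:34287824-34287973, minus strand: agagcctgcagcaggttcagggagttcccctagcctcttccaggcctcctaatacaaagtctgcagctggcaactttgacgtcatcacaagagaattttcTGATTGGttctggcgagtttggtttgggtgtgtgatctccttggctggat
H2-Eb1, chr17:34305717-34305866, plus strand: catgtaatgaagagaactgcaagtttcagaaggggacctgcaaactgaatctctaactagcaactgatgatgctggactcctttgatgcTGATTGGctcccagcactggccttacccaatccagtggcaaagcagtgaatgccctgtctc
H2-DMb1, chr17:34153041-34153190, plus strand: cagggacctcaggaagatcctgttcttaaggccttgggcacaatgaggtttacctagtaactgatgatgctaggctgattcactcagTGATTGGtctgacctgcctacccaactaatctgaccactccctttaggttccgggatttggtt
The core began 50 bases before the start in H2-Aa, 61 before it in H2-Eb1 and 63 before it in H2-DMb1. Searched on both strands, it was present in 7.82% of all 32851 promoter windows of 300 bases. The H2-DMb2 window also held it, 92 bases before the start, and the windows of H2-DMa did not. The reference tables had no entry for H2-Ab1 or Ciita. Ciita itself had 17.7 and 15.5 CPM in NASH monocytes and 0 UMIs in control monocytes, which allows up to 34.8 CPM, so a difference was not detectable at this depth.

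Cell by cell, the class II difference was not a uniform shift. The 4 genes H2-Aa, H2-Ab1, H2-Eb1 and Cd74 together had a median of 3.36 UMIs per 1000 in NASH 1 monocytes and 3.75 in NASH 2, but upper quartiles of 26.4 and 23.3 and maxima of 101.1 and 112.3. At least 10 per 1000 were found in 47 of 123 monocytes of NASH 1 and 36 of 98 of NASH 2. None of the 13 control monocytes reached 10; the highest were 3.67 in control 1 and 1.18 in control 2. T and NK cells, which make little class II themselves, had medians of 1.35 and 1.12 per 1000 in NASH 1 and NASH 2 and 0.457 and 0.519 in control 1 and control 2, and 1 of 50 and 1 of 64 of them in NASH 1 and NASH 2 reached 10. In those cells H2-Aa reached 465 and 198 CPM (NASH 1 and NASH 2) and 14.2 and 163 CPM (control 1 and control 2). The part of free RNA in the monocyte difference was not tested. Per 1000 UMIs, class II was also higher in NASH libraries in macrophages above the C1q limit of the gate. In Ccr2-zero C1q-high macrophages the NASH 1 and NASH 2 medians were 31.8 and 23.7, against 6.49 and 4.84 in controls 1 and 2. In Ccr2+ C1q-high macrophages they were 48.8 and 47.8 against 15.7 and 19.3. Cd209a+ dendritic cells had 48.1 and 79.8 against 63.9 and 25.0, so the diets overlapped.

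**Figure D1:**
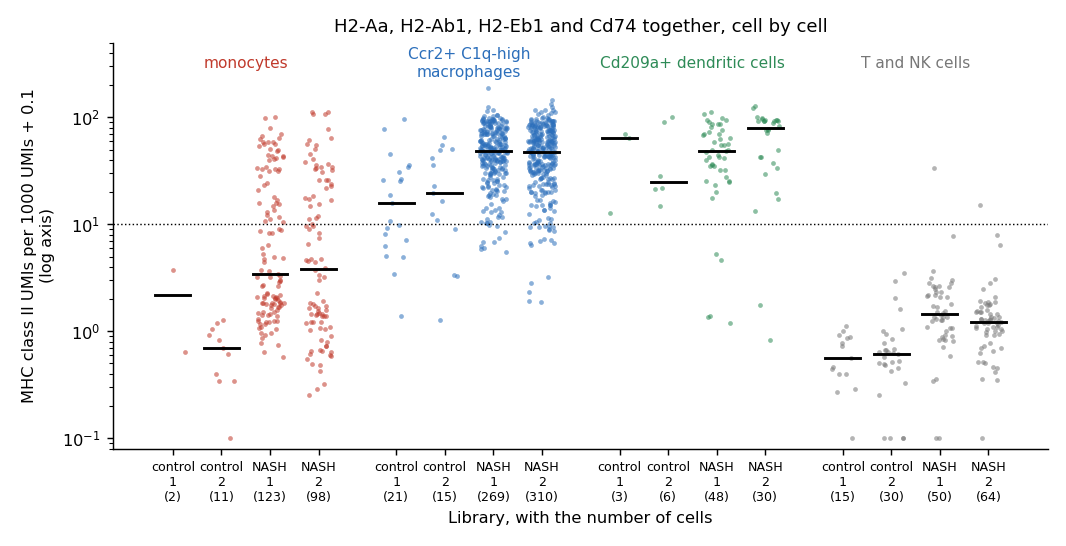
UMIs of H2-Aa, H2-Ab1, H2-Eb1 and Cd74 together per 1000 UMIs (plus 0.1, log axis), 1 point per cell, by library, for monocytes and 3 other gated classes, with bars at the medians and a dotted line at 10 per 1000. NASH monocytes run from the level of T and NK cells up to that of C1q-high macrophages, with 47 of 123 and 36 of 98 cells at 10 or more, while none of the 13 control monocytes reaches the line.

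Interferon-stimulated genes were also higher where they were called. Of 27 genes on the list, 15 were tested, 7 were higher and none lower. The median log2 fold change was 1.87, or 1.65 with genes that had 0 control UMIs set at their lower bound. Of all genes tested, 1.18% were higher and 1.42% lower, and their median was 0.13. Isg15, a ubiquitin-like modifier, had 120 and 287 CPM in NASH 1 and NASH 2 and 0 UMIs in the controls. The level was at least 5.44-fold higher, with the 0 of 86179 control UMIs taken as 3 counts over the group. Rtp4, a chaperone induced by interferon, was at 101 and 206 CPM against 0 UMIs, at least 4.17-fold higher. Oas1a, an antiviral sensor of double-stranded RNA, was at 94.9 and 118 CPM against 0 UMIs, at least 3.00-fold higher. Irf7, a transcription factor that amplifies interferon production, had 138 and 220 CPM, and its 1 control UMI gave a ratio of 14.8 (counting interval 2.64 to 588). These 4 genes were called in 8 of 12, 9 of 12, 7 of 11 and 8 of 13 alternatives. Ifi27l2a, with more control UMIs, rose from 1370 and 1117 CPM to 2467 and 2654 CPM (log2 fold change 1.28, SE 0.385, edgeR adjusted p = 0.0404). Ms4a4c, a membrane protein gene induced by interferon, stood at 501 and 679 CPM against 457 and 120 CPM (1.87, SE 0.476, edgeR adjusted p = 0.00791); its control 1 value lay close to NASH 1, and its transcript is 82.34% identical to Ms4a4b over the aligned stretch.

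The promoters of 2 of these genes are printed because they hold the interferon-stimulated response element, searched on both strands as GAAA, any 2 bases and GAAA, and shown in capitals where it or overlapping copies of it occur.
Isg15, chr4:156200819-156200968, minus strand: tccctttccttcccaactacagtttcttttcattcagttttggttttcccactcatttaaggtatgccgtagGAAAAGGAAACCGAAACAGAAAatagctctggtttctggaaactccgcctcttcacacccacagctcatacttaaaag
Oas1a, chr5:120907526-120907675, minus strand: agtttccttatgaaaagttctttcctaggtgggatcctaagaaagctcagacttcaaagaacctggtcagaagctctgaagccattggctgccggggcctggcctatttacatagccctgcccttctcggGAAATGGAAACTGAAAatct
Isg15 held 3 overlapping copies, beginning 78, 72 and 66 bases before the start, and Oas1a held 2, beginning 20 and 14 before it. The element was present in 3.44% of the 32851 windows, and the 150 bases before Irf7 and Ms4a4c did not hold these letters.

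Genes of macrophage maturation and of lipid- and scar-associated macrophages were mostly higher where they were called. On the maturation list 6 of 18 tested genes were higher and 1 lower. On the lipid and scar list 5 of 19 were higher and 1 lower. The medians were 0.87 and 1.70, and the lipid and scar median is 1.44 with genes at 0 control UMIs set at their bound. Of all genes tested, 1.18% were higher and 1.42% lower, and their median was 0.13. Aif1, the actin-binding protein Iba1, had 514 and 443 CPM in NASH 1 and NASH 2 and 0 and 39.9 CPM in control 1 and control 2, a ratio of 13.9 (counting interval 4.75 to 67.7); it was called in 13 of 14 alternatives. Spp1, which encodes the matrix protein osteopontin, had 199 and 350 CPM against 0 UMIs, at least 7.52-fold higher and called in 11 of 14. Its UMIs were concentrated, with 25 of 123 and 13 of 98 monocytes positive and 40.6% and 40.3% of them in 1 cell per library. Fabp5, a fatty acid binding protein, stood at 301 and 319 CPM against 0 and 39.9 CPM, a ratio of 8.87 (counting interval 3.02 to 43.1), and was called in 9 of 14. Axl, a receptor for the uptake of dying cells, was at 127 and 157 CPM against 0 UMIs, at least 4.00-fold higher and called in 8 of 12. Cd63, a lysosomal membrane tetraspanin, was at 177 and 175 CPM against 1 control UMI, a ratio of 15.2 (counting interval 2.70 to 601). The protease gene Ctsl was the lower gene of both lists, at a log2 fold change of -1.72, and turned to 8.69 without control 2, where most of its UMIs came from 1 cell. Trem2, Gpnmb, Apoe and Cd68 did not pass the test, for example Trem2 at 233 and 178 CPM against 0 and 93.0 CPM. Summed, the maturation list stood at 12361 and 17259 CPM in NASH 1 and NASH 2 monocytes and 14521 and 7404 CPM in those of control 1 and control 2, so the diets overlapped. The lipid and scar list summed to 7011 and 8504 CPM in NASH monocytes against 5662 and 4692 CPM in control monocytes. It was also higher in NASH libraries in Ccr2+ C1q-high macrophages, at 15218 and 13957 CPM against 7030 and 7789 CPM. In Ccr2-zero C1q-high macrophages it was 17653 and 18009 CPM against 10072 and 11178 CPM. T and NK cells overlapped, at 2733 and 2332 CPM against 2930 and 1576 CPM.

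Most genes of the blood monocyte stage did not pass the test, and those called did not share a direction. On the classical monocyte list of 22 tested genes, 3 were lower and 1, the membrane protein gene Ms4a4c, was higher. The median log2 fold change was 0.38, against 0.13 over all genes tested, of which 1.42% were lower and 1.18% higher. Fn1, fibronectin, stood at 463 and 586 CPM in NASH 1 and NASH 2 and 1826 and 1316 CPM in control 1 and control 2. It fell by 1.30 on the log2 scale (SE 0.343, edgeR adjusted p = 0.0109), and was called in 7 of 14 alternatives. Plac8, at 5511 and 5524 CPM against 3379 and 3376 CPM, and Hp, haptoglobin, at 704 and 575 CPM against 913 and 425 CPM, did not pass the test. Of the gate genes, given with no test, Chil3 stood at 817 and 1196 CPM against 5571 and 2725 CPM, F13a1 at 314 and 406 CPM against 822 and 930 CPM, and Ly6c2 at 1442 and 1460 CPM against 1644 and 1396 CPM.

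Immediate-early genes, which respond within minutes to stimulation or handling, had 3 lower and none higher of 17 tested. The median log2 fold change was 0.08, against 0.13 over all genes tested, of which 1.42% were lower and 1.18% higher. Summed, the list stood at 4099 and 5757 CPM in NASH 1 and NASH 2 and 5753 and 5437 CPM in control 1 and control 2, so the groups overlapped. Junb, a subunit of the AP-1 transcription factor, was at 267 and 231 CPM against 639 and 678 CPM (log2 fold change -1.30, edgeR adjusted p = 0.0184). Zfp36, which destabilises cytokine messages, was at 139 and 85.2 CPM against 274 and 518 CPM (-1.95, edgeR adjusted p = 0.000178). Ier2, another early response gene, was at 61.8 and 89.9 CPM against 274 and 306 CPM (-1.92, edgeR adjusted p = 0.00185). Of 14 alternatives, Junb was called in 7, Zfp36 in 8 and Ier2 in 6. Junb was also at higher levels in control than in NASH libraries among Ccr2-zero C1q-high macrophages, at 650 and 492 CPM in control 1 and control 2 against 143 and 140 CPM in NASH 1 and NASH 2, so the same order was seen outside the monocytes. Lifr, the receptor for leukaemia inhibitory factor, had the largest fall, from 183 and 146 CPM to 13.2 and 23.2 CPM (-3.02, SE 0.629, edgeR adjusted p = 0.000348). Ms4a8a, a membrane protein gene, fell from 1370 and 266 CPM to 67.3 and 122 CPM (-2.18, SE 0.412, edgeR adjusted p = 4.23e-05). Lifr was called in 8 of 13 alternatives and Ms4a8a in 9 of 14. No gene was called on the lists of S100, annexin and galectin genes (13 tested) and of oxidative phosphorylation (25 tested).

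**Figure D2:**
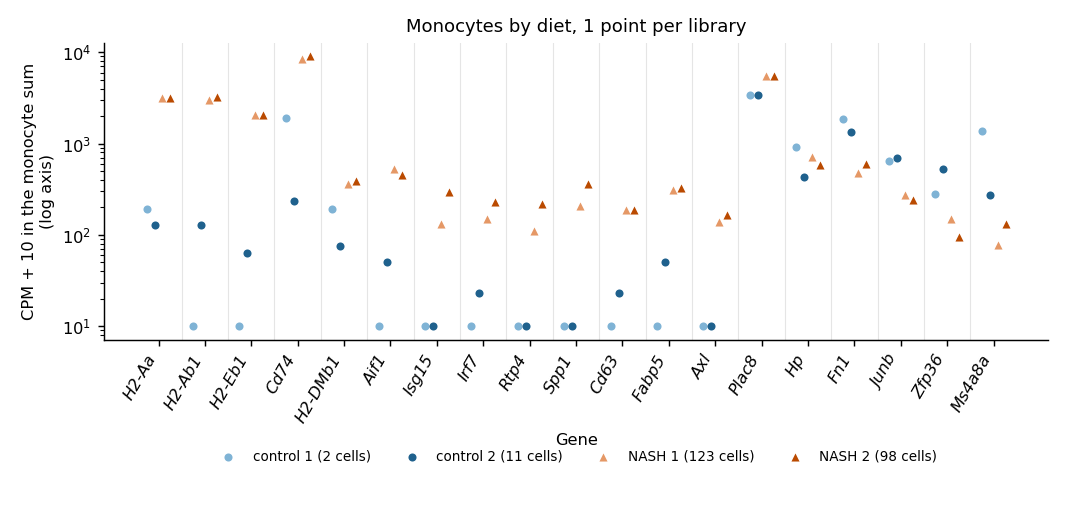
Level of 19 genes in the monocyte sum of each library (CPM plus 10, log axis), circles for control and triangles for NASH libraries. H2-Aa, H2-Ab1, H2-Eb1 and Cd74 lie far higher in both NASH libraries, Isg15, Rtp4, Spp1 and Axl have 0 UMIs in the controls, and Fn1, Junb, Zfp36 and Ms4a8a lie lower in NASH.

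The class II level also marked other differences among NASH monocytes. The split at 10 per 1000 was made after the values were seen and the genes named for it were chosen then too, so the values are a description of 47 and 36 cells above and 76 and 62 below, with no test. Only 9 and 8 cells lay between 8 and 12 per 1000, and median depth was close, at 7088 and 6236.5 UMIs above against 6936 and 6001 below. H2-DMb1, which was not used for the split, stood at 732 and 702 CPM above and 116 and 164 CPM below. Itgax, the integrin CD11c, had a UMI in 29.8% and 22.2% of cells above and in 5.26% and 4.84% below, and Axl stood at 252 and 280 CPM against 49.9 and 72.8 CPM. Cx3cr1, the fractalkine receptor, stood at 501 and 403 CPM against 193 and 192 CPM. C1qb reached 602 and 929 CPM above, against 212 and 221 CPM below, within the limit set by the gate.

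Among blood monocyte genes, Chil3 and F13a1, which the gate used, and Hp ran the other way. Chil3 stood at 286 and 219 CPM above the split and 1145 and 1858 CPM below, F13a1 at 136 and 127 CPM against 424 and 595 CPM, and Hp had a UMI in 59.6% and 47.2% of cells against 86.8% and 85.5%. Ccr2 differed little, at 836 and 775 CPM above and 886 and 969 CPM below. Isg15 did not follow the split, at 110 and 230 CPM above and 127 and 325 CPM below. The dendritic cell growth factor receptor Flt3 was low on both sides, at 20.3 and 30.7 CPM against 14.3 and 23.4 CPM, where Cd209a+ dendritic cells of the same libraries had 123 and 119 CPM. The controls' 13 monocytes, with high Chil3 and low class II, lay on the side of the cells below the split in these genes.

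**Figure D3:**
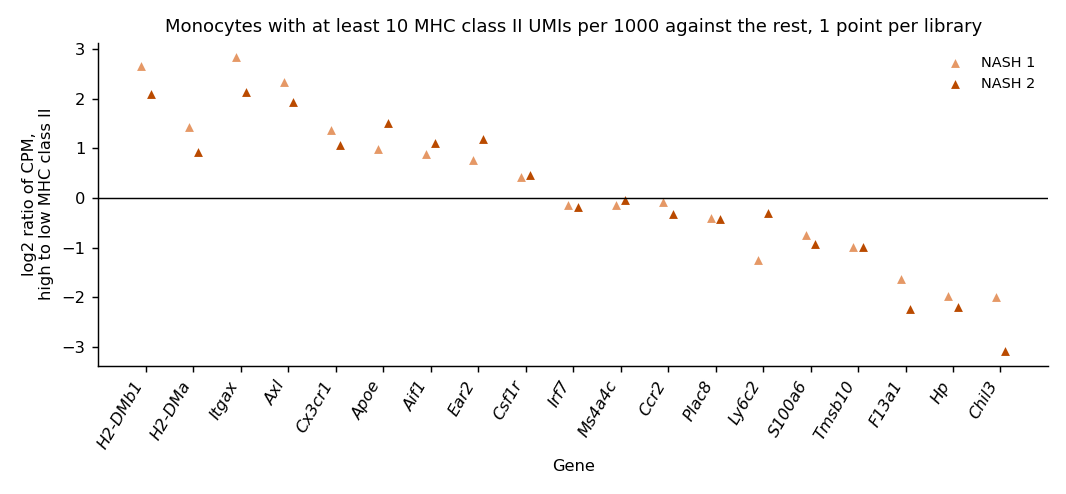
Log2 ratio of CPM in NASH monocytes with at least 10 class II UMIs per 1000 to those below, 1 triangle per NASH library, for 19 genes that did not define the split. H2-DMb1, Itgax, Axl and Cx3cr1 lie above 0 in both libraries, Ccr2 and Irf7 close to 0, and F13a1, Hp and Chil3 below 0.

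The monocytes were also split by Ly6c2 itself. Among NASH monocytes thinned to 1000 UMIs, those with a Ly6c2 UMI (62 and 54 cells in NASH 1 and NASH 2) had a median class II sum of 2 and 1 per 1000, and those without (61 and 44 cells) 9 and 8.5. Cells at 10 or more were 17 and 15 of the former and 30 and 21 of the latter. Across genes, edgeR's quasi-likelihood test with the library as a block called 0 of 822 genes higher (0%) and 0 lower (0%), with 59 genes at an unadjusted p under 0.05 and 0 calls by DESeq2. The count was 20 with relative log expression size factors and 10 without the filter on low counts.

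At full depth, where deeper cells have more chance of a Ly6c2 UMI, 102 and 85 monocytes were positive. There 42 of 3812 genes (1.1%) were called higher and 43 (1.13%) lower by the same edgeR test. Cells without a Ly6c2 UMI at this depth had entered the gate through Chil3 or F13a1, which positive cells did not need. The part of the gate and of depth in these calls was not tested. Ifitm6, an interferon-induced transmembrane protein of myeloid cells, was higher in Ly6c2-positive monocytes (log2 fold change 1.33, SE 0.277, edgeR adjusted p = 0.00022), as were the cytoskeletal genes Vim (0.85, edgeR adjusted p = 3.6e-06) and Tmsb10 (0.52, edgeR adjusted p = 5.16e-05). Lpl, lipoprotein lipase, was lower (-2.08, SE 0.221, edgeR adjusted p = 1.64e-17), and so were the ribonuclease gene Ear2 (-2.27, edgeR adjusted p = 1.34e-17), Itgax (-2.57, edgeR adjusted p = 4.75e-05), Fabp5 (-1.60, edgeR adjusted p = 1.43e-09) and the class II genes H2-Eb1 (-0.73, edgeR adjusted p = 1.44e-08) and H2-Aa (-0.42, edgeR adjusted p = 0.00337). These genes were named after their values were seen, except those on the lists.

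NASH monocytes were then set against 3 other gated classes of the same 2 libraries, in 1 edgeR fit with the library as a block. The classes were cut on C1q, Ccr2, Cd209a and other genes in the same cells, so genes that go with those had to differ; the counts rank the genes and are no evidence that the classes are distinct. Ccr2+ C1q-high macrophages (269 and 310 cells in NASH 1 and NASH 2) share Ccr2 and Lyz2 with the monocytes and exceed the C1q limit. Against them 1027 of 9165 genes (11.2%) were called higher in monocytes and 988 (10.8%) lower. Ccr2-zero C1q-high macrophages (546 and 787 cells), which include Kupffer cells, gave 1481 (16.2%) higher and 1450 (15.8%) lower. Cd209a+ dendritic cells (48 and 30 cells) had C1q under the limit, at least 1 UMI of Cd209a and at least 3 of H2-Ab1. Against them 443 of 9164 genes (4.83%) were higher and 266 (2.9%) lower.

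Genes of blood monocytes that were not used by the gate were mostly higher in the monocytes than in both macrophage classes. Only the monocytes had to carry Ly6c2, Chil3 or F13a1, which tilted genes that go with these towards higher values in them. Of 21 tested genes on that list, 16 were higher and 2 lower than in Ccr2+ C1q-high macrophages (median 1.91, against -0.03 over all genes), 17 and 2 against Ccr2-zero cells, and 11 and 0 against dendritic cells. In the same order, the shares of all tested genes called higher and lower were 11.2% and 10.8%, 16.2% and 15.8%, and 4.83% and 2.9%. Plac8, which is abundant in circulating myeloid cells, stood at 5511 and 5524 CPM in monocytes of NASH 1 and NASH 2, 488 and 607 CPM in Ccr2+ C1q-high macrophages and 1660 and 1586 CPM in dendritic cells. The differences were 3.34 (SE 0.147, edgeR adjusted p = 1.06e-09) and 1.82 (SE 0.143, edgeR adjusted p = 1.9e-06). Hp stood at 704 and 575 CPM in monocytes and 34.5 and 33.3 CPM in Ccr2+ C1q-high macrophages (4.21, SE 0.536, edgeR adjusted p = 0.0188). The 2 list genes that were lower than in macrophages were Csf1r, the receptor that sustains macrophages, and Ly6a.

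S100, annexin and cytoskeletal genes were higher in monocytes than in macrophages, and few of them differed from dendritic cells by the test. On that list 10 of 15 tested genes were higher and 1 lower than in Ccr2+ C1q-high macrophages (median 1.82). Against dendritic cells 1 was higher and 2 lower. The shares of all tested genes called higher and lower were 11.2% and 10.8% in the first comparison and 4.83% and 2.9% in the second. S100a4, a calcium-binding protein of motile cells, stood at 1815 and 1308 CPM in monocytes, 139 and 102 CPM in Ccr2+ C1q-high macrophages, 31.4 and 12.5 CPM in Ccr2-zero cells and 1897 and 1034 CPM in dendritic cells. Its difference from the Ccr2+ macrophages was 3.69 (SE 0.175, edgeR adjusted p = 1.08e-08) and from dendritic cells 0.19 (SE 0.162, edgeR adjusted p = 0.583). S100a6 showed the same order, with 2975 and 2619 CPM, 282 and 303 CPM, 66.5 and 39.4 CPM, and 2812 and 1734 CPM in those classes. Elane, neutrophil elastase, stood at 225 and 6.20 CPM against 0 UMIs in Ccr2+ macrophages, but 1 barcode held most of its NASH 1 UMIs. Tppp3, a tubulin-binding protein gene, was among the largest differences from Ccr2+ macrophages, at 181 and 133 CPM against 9.08 and 3.63 CPM (4.63, SE 0.235, edgeR adjusted p = 6.11e-14).

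Macrophage programmes ran opposite. All 21 tested maturation genes were lower in monocytes than in Ccr2+ C1q-high macrophages (median -1.81). So were 13 of 16 Kupffer identity genes, 14 of 23 lysosome genes and 9 of 14 class II genes. None was higher on these 4 lists, where 11.2% of all genes tested were higher and 10.8% lower. Apoe, the lipid carrier, stood at 7528 and 11887 CPM in monocytes and 50263 and 50203 CPM in Ccr2+ C1q-high macrophages (-2.38, SE 0.357, edgeR adjusted p = 0.0294). Trem2, a lipid-sensing receptor, stood at 233 and 178 CPM against 999 and 880 CPM (-2.21, SE 0.119, edgeR adjusted p = 1.76e-13). Clec4f, a lectin of Kupffer cells, stood at 50.7 and 62.0 CPM in monocytes, 739 and 803 CPM in Ccr2+ macrophages and 2407 and 3259 CPM in Ccr2-zero cells. T and NK cells held 51.7 and 66.1 CPM of Clec4f, so the monocyte level was at that of cells that do not make it. Vsig4, a complement receptor of Kupffer cells, stood at 46.3 and 23.2 CPM in monocytes, 748 and 487 CPM in Ccr2+ macrophages (-4.11, SE 0.205, edgeR adjusted p = 8.57e-10) and 2011 and 1952 CPM in Ccr2-zero cells. Timd4, a marker of long-resident Kupffer cells, had 3.31 and 1.55 CPM in monocytes and 50.9 and 84.1 CPM in Ccr2-zero cells (-4.65, SE 0.418, edgeR adjusted p = 1.68e-09).

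**Figure D4:**
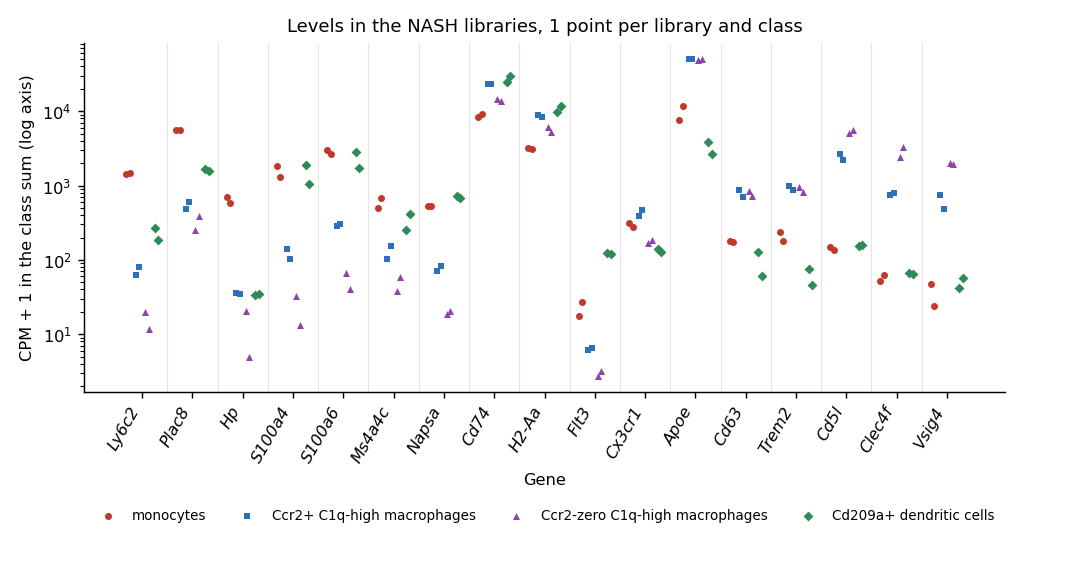
Level of 17 genes in the summed cells of 4 gated classes of NASH 1 and NASH 2 (CPM plus 1, log axis), 1 point per library and class. Monocytes are highest in Plac8 and Hp, overlap with dendritic cells in S100a4 and S100a6, and are far below both macrophage classes in Apoe, Cd5l, Clec4f and Vsig4.

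Against Cd209a+ dendritic cells the monocytes were marked by receptors of phagocytes and by lysosomal genes. Of 6 Fc receptor genes 5 were higher in monocytes and 1, Fcgrt, lower. Of 15 growth factor and cytokine receptors 9 were higher and none lower, where 4.83% of all genes tested were higher and 2.9% lower. Fcgr3, a low-affinity IgG receptor, stood at 334 and 366 CPM in monocytes and 108 and 74.1 CPM in dendritic cells (1.96, SE 0.173, edgeR adjusted p = 1.17e-08). Csf1r, the receptor for macrophage colony-stimulating factor, stood at 470 and 527 CPM against 302 and 189 CPM (1.05, SE 0.160, edgeR adjusted p = 0.000162). C5ar1, the receptor for complement C5a, stood at 91.6 and 97.6 CPM against 12.6 and 0 CPM (3.70, SE 0.442, edgeR adjusted p = 4.48e-06). Mgst1, a microsomal glutathione transferase, stood at 335 and 387 CPM against 25.2 and 14.8 CPM (4.17, SE 0.246, edgeR adjusted p = 1.03e-11). Lysosome genes were higher in 13 of 23 and lower in none, for example Ctsb at 1309 and 1560 CPM against 664 and 493 CPM (1.35, edgeR adjusted p = 3.64e-05). Ccr2+ macrophages lay above both, with 4301 and 4526 CPM of Ctsb.

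Dendritic cell genes were lower in 11 of 15 tested and higher in 1, with a median of -2.46 against 0.01 over all genes. In this comparison 2.9% of all genes tested were lower and 4.83% higher. Flt3 stood at 16.5 and 26.3 CPM in monocytes against 123 and 119 CPM (-2.49, SE 0.313, edgeR adjusted p = 3.62e-06). Mgl2, a lectin of dermal and hepatic dendritic cells and macrophages, had 1 UMI in each NASH monocyte library against 136 and 145 CPM. H2-Oa, a chain of the class II loading regulator H2-DO, stood at 4.41 and 9.30 CPM against 194 and 330 CPM (-5.20, SE 0.347, edgeR adjusted p = 8.69e-11). On the class II list 8 of 13 tested genes were lower and 2, the proteases Ctss and Lgmn, higher. The dendritic cells had to carry at least 3 UMIs of H2-Ab1, with no such condition on the monocytes. This tilted class II genes towards lower values in the monocytes. H2-Aa was at 9760 and 11858 CPM in dendritic cells and 8928 and 8284 CPM in Ccr2+ macrophages, against 3158 and 3132 CPM over all NASH monocytes and 7576 and 7369 CPM in the monocytes above 10 class II UMIs per 1000.

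Interferon-stimulated and glycolytic genes gave mixed orders. Of 27 tested interferon genes, 8 were higher and none lower than in dendritic cells, while 4 were higher and 7 lower than in Ccr2+ macrophages. The shares over all genes tested were 4.83% and 2.9% against dendritic cells and 11.2% and 10.8% against Ccr2+ macrophages. Ifi27l2a was highest in monocytes, at 2467 and 2654 CPM against 1488 and 2040 CPM in Ccr2+ macrophages (0.54, SE 0.115, edgeR adjusted p = 0.00136) and 981 and 886 CPM in dendritic cells. Irf7 lay between them, at 138 and 220 CPM against 239 and 352 CPM (-0.74, edgeR adjusted p = 0.000103) and 90.6 and 104 CPM (0.90, edgeR adjusted p = 0.00149). Of 19 glycolysis and hypoxia genes, 10 were higher and none lower than in Ccr2+ macrophages. Pkm, the pyruvate kinase gene, stood at 830 and 772 CPM in monocytes, 446 and 488 CPM in Ccr2+ macrophages (0.77, SE 0.112, edgeR adjusted p = 9.42e-06) and 470 and 389 CPM in dendritic cells (0.95, SE 0.127, edgeR adjusted p = 8.34e-06).

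**Figure D5:**
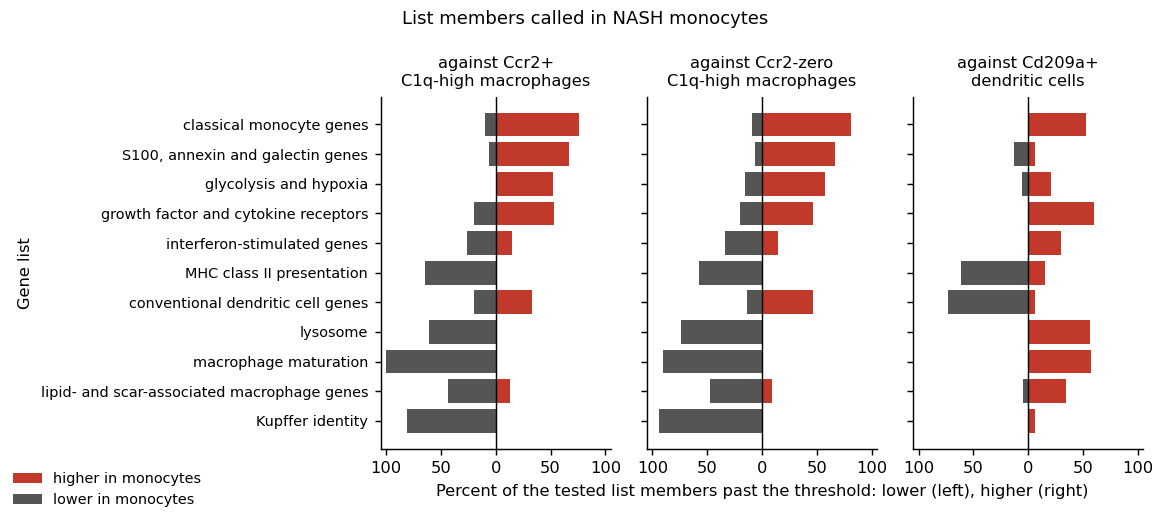
Percent of the tested members of 11 gene lists that were called higher (right, red) or lower (left, grey) in NASH monocytes against each of 3 gated classes. Blood monocyte genes are mostly higher in all 3 panels, with 2 lower against each macrophage class. Class II genes are mostly lower in all 3, with 2 higher against dendritic cells, which were gated on H2-Ab1. Lysosome and maturation genes are lower against macrophages but higher against dendritic cells.

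Markers of non-classical monocytes, the patrolling cells that derive from classical ones in blood, gave mixed orders against macrophages and were higher where called against dendritic cells. Of 17 tested, 4 were higher and 7 lower against Ccr2+ macrophages (median log2 fold change 0.21). Against Ccr2-zero macrophages 7 were higher and 6 lower (-0.11), and against dendritic cells 9 were higher and none lower (1.34). In the same order, the shares of all genes called higher and lower were 11.2% and 10.8%, 16.2% and 15.8%, and 4.83% and 2.9%. Between diets, 2 of 13 tested, Ear2 and Gngt2, were higher in NASH monocytes and none lower (median 0.96). The shares of all genes tested between diets were 1.18% higher and 1.42% lower. The summed list stood at 2346 and 2078 CPM in the monocytes of NASH 1 and NASH 2 and at 1096 and 984 CPM in those of control 1 and control 2. Ace, angiotensin-converting enzyme, stood at 53.0 and 37.2 CPM in monocytes against 6.18 and 4.62 CPM in Ccr2+ macrophages (3.04, SE 0.325, edgeR adjusted p = 6.84e-08). Ear2 stood at 204 and 293 CPM against 465 and 655 CPM (-1.18, SE 0.118, edgeR adjusted p = 2.34e-08), and Treml4 at 50.7 and 46.5 CPM against 98.5 and 94.7 CPM (-0.98, edgeR adjusted p = 0.000147). A separate gate for non-classical cells, with Ccr2 and Ly6c2 at 0, took 10 and 13 cells in NASH 1 and NASH 2 and 0 and 1 in control 1 and control 2, too few to compare with the classical monocytes.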

How the data were processed

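Counts are UMI counts per gene and barcode as deposited by the authors; Cell Ranger, Seurat and mm10 are named in the submitters' processing notes, without versions, and barcode calling is not given in the sources used here. Of 6927 deposited barcodes over 27998 genes, 6237 had at least 200 genes and at most 10% mitochondrial UMIs and were kept. Members and gene lists were chosen with earlier results of these data known. UMIs were summed per library and gated class, with groups from the labels, and tested with edgeR 4.0.16 (robust quasi-likelihood test, TMM factors, filterByExpr, Benjamini-Hochberg over all genes tested except gate genes, threshold 0.05) in R 4.3.3. Standard errors are of log2 fold changes. Class contrasts used NASH libraries with the library as a block; the diet contrast used all 4 libraries without one. The diet contrast had been planned only for libraries with at least 3 monocytes; control 1 had 2, so the fit is an added test. Same-numbered libraries did not deviate together in monocyte sums (r = -0.0554 over 4061 genes across 1 check). With 2 monocytes in control 1, counting error could hide a pairing, so the check cannot decide whether the numbers pair the libraries. Alternatives were DESeq2 1.42.0, other size factors, no filter, other gates and cell filters, doublet removal (Scrublet in scanpy 1.11.5), leaving out a library and, added after seeing the data, leaving out each gene's highest barcode. Named genes were the largest called differences without overlap at 50 CPM or more, the list genes with the smallest p-values and, as a description, gate genes; other genes were named after their values were seen. The 34 lists held 551 entries, 542 of them measured; 1 gene is not reported here. UMI totals of the monocytes run from 10950 to 906483 per library, and this limits the diet contrast. Fits were tested on simulated counts with the same dispersion for every gene. Single barcodes that hold most UMIs of a gene were not simulated, so that test cannot decide how the fits do on the few control monocytes. Coordinates are from GENCODE vM21, which matched 98.74% of gene identifiers, and promoters from RefSeq.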

Additional observations from a re-analysis of the deposited data

How the results depend on the processing

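The few control monocytes limit the diet contrast: 97 genes were called, and 12, 10, 283 and 73 without NASH 1, NASH 2, control 1 and control 2 (leaving out 1 library gave 10 to 283), 7 with DESeq2 and 3 with the gate read at 1000 UMIs. With the replicate number as a block, 8 genes were called, 7 of them among the 97. Whether the numbers pair these libraries is not known. With a library left out, Ctsl ranged from -1.99 to 8.69 and Ube2c from -2.54 to 6.51, both reversed without control 2. Where a library is left out, its partner is assumed to vary like the other diet's pair. Against Ccr2+ C1q-high macrophages the 2015 calls became 1233 with DESeq2 and 1084 with the gate read at 1000 UMIs, where Cdk1 and Ube2c reversed to 0.15 and 0.11. Against Cd209a+ dendritic cells the 709 calls became 397 with only those classes fitted and 456 with the gate read at 1000 UMIs, where Ube2c reversed to 10.07. Against Ccr2-zero C1q-high macrophages the 2931 calls became 1940 with that gate. Without the replicate block the 3 counts were 1645, 569 and 2592. The 0 calls of the Ly6c2 split became 85 at full depth, 20 with relative log expression factors, 10 with no filter and 9 with no replicate block. The mean NASH share of 6.46% became 3.42% at 1000 UMIs and lay between 5.19% and 7.73% with a library left out; the mean control share of 0.458% became 1.27% with the stricter cell filter and lay between 0.151% and 0.765%. Of the values of named genes under an alternative, 1632 of 1689, 1383 of 1474, 1589 of 1613, 362 of 413 and 988 of 1211 were counted as kept, for Ccr2+ macrophages, dendritic cells, Ccr2-zero macrophages, the Ly6c2 split and the diets. A kept value stayed on its side of the threshold and, where it was called in either fit, kept its direction. A change of direction with neither value called was counted as kept. In the class comparisons, values with a library left out had no test and were judged on direction alone. Fewer cells and samples enter the gate at 1000 UMIs and the left-out libraries; the cause of the other shifts was not tested.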
